A study of Mus musculus with 37 samples.

Results

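The nuclear genes that encode the subunits of the 5 complexes of oxidative phosphorylation were followed through intact mammary glands of irradiated and sham-irradiated mice. Members were taken by symbol: Ndufa, Ndufb, Ndufc, Ndufs or Ndufv followed by a digit for complex I, Sdha to Sdhd for complex II, symbols that start with Uqcr for complex III, Cox4 to Cox8 for complex IV and Atp5 for complex V. Cox7a1 and Cox8b, which mark muscle and brown adipocytes, were left out. The rule gave 78 of the 18820 named genes: 35 of complex I, 4 of complex II, 7 of complex III, 15 of complex IV and 17 of complex V. Ndufa4 and Ndufa4l2 were counted under complex I by their names, although the Ndufa4 protein is now regarded as a subunit of complex IV. Ndufb1, Ndufb4b and Ndufb4c had no probe set with 1 symbol, and Cox7c, Ndufa13 and Uqcrc2 were only on probe sets shared by several symbols, so none of these was analysed here.

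Oxidative phosphorylation is the last stage of respiration and takes place in the inner mitochondrial membrane. Complex I takes electrons from NADH and complex II from succinate, complex III passes them through ubiquinone to cytochrome c, complex IV hands them to oxygen, and complex V, the ATP synthase, uses the proton gradient built by complexes I, III and IV to make ATP. A few catalytic subunits are encoded in mitochondrial DNA, and all the genes described here are nuclear. In the mammary gland the complexes are found in epithelium, in fat and in every other cell with mitochondria, and they are most abundant in muscle and brown adipocytes.

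The glands came from female BALB/c mice, exposed to radiation or to a sham procedure at the age of 10 weeks. One inguinal gland of each mouse had been surgically cleared earlier, and the arrays hold RNA of the gland left intact on the opposite side. The treatments were sham, 100 cGy of gamma rays (sparsely ionizing), and 30 cGy or 10 cGy of silicon particles at 350 MeV/amu (densely ionizing). Glands were taken 1, 4 and 12 weeks later, with 3 arrays in each of the 12 groups except the sham group of week 4, which had 4. Week goes with age, and also with place: glands of week 1 were collected where the mice were irradiated, those of weeks 4 and 12 after transport back to the home institution, so these cannot be told apart. Nothing in the labels says that replicates are separate animals, so each p-value refers to the variation among these arrays and no more, and that variation may be technical. In whole tissue, fewer cells of a type and less RNA per cell cannot be told apart. All 16 measured genes of a luminal epithelium list were past the filter on low signal.

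Values are log2 signals after robust multi-array averaging (RMA), and a difference of 1 is a factor of 2. Array medians lay between 5.04 and 5.25, and the arrays correlated at 0.948 to 0.987. Of the members, 76 were among the 13174 genes past the filter. Cox7b2 and Cox8c, testis forms of complex IV subunits, were not past it, with medians of 2.23 and 3.28. Of the 76, 22 had more than 1 probe set, of which the brightest was used. Which of several near-identical gene copies gave a probe set's signal was not analysed here. Genes were called in limma at an adjusted p under 0.05.

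On 3 arrays the members stood high together: replicate 1 of sham week 4, replicate 3 of sham week 12 and replicate 3 of 30 cGy silicon week 12. The median member was 0.48, 0.45 and 0.46 above its mean over all arrays there, and 67, 72 and 73 of the 76 members were above their own mean. The first 2 are controls, so member medians and calls against sham or between weeks that rest on them are given with and without them.

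**Figure D1:**
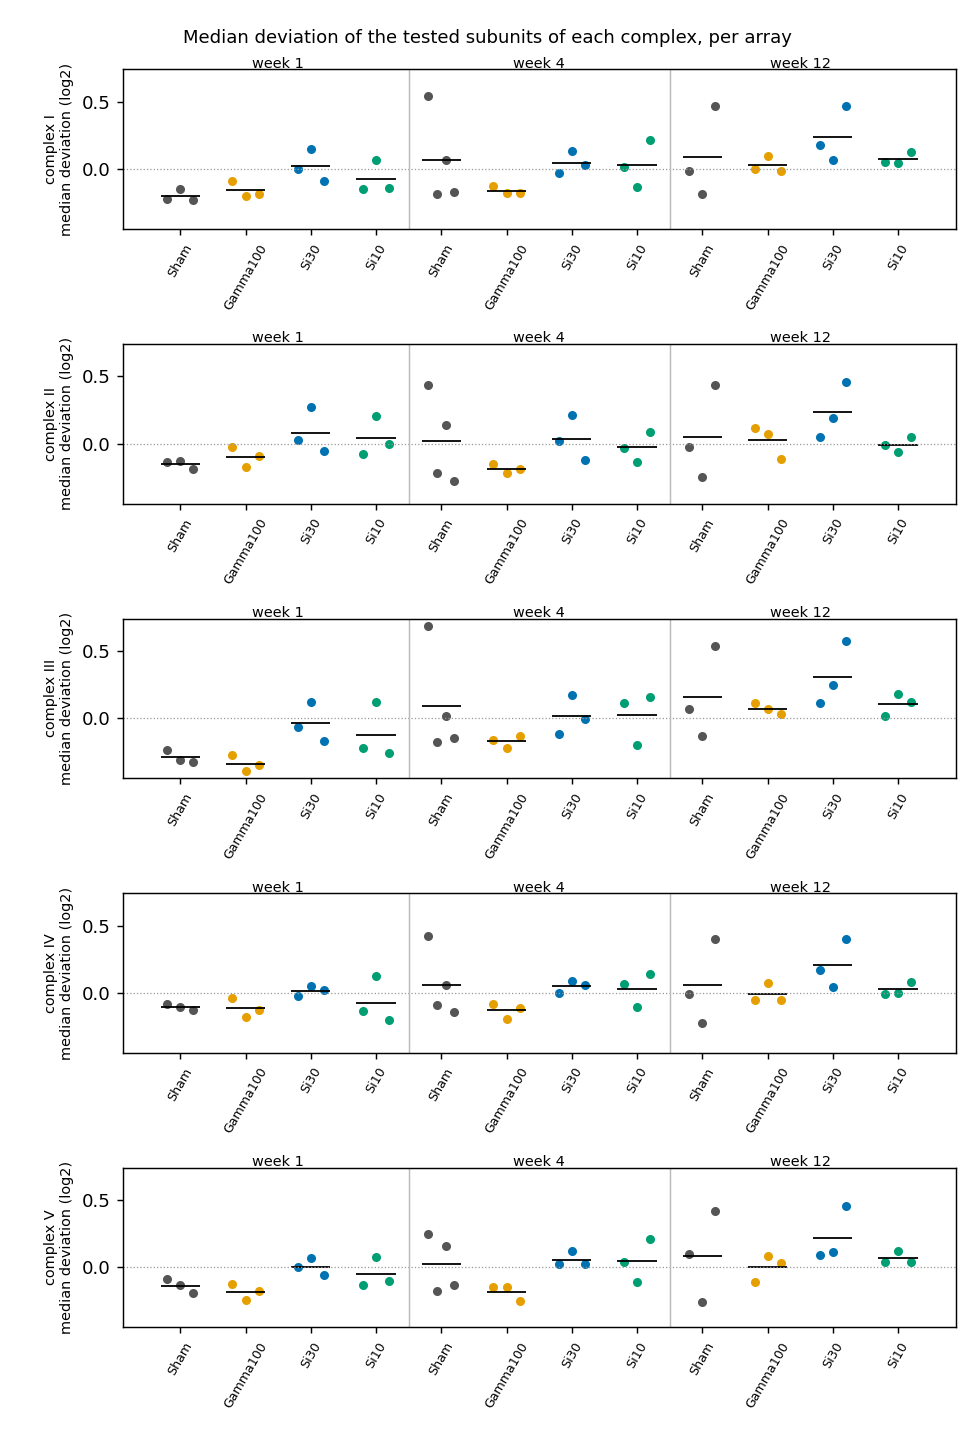
Median deviation of the members of each complex from their own mean over 37 arrays (log2), 1 point per array and a bar at the group mean, ordered by week and treatment (Gamma100 is 100 cGy of gamma rays, Si30 and Si10 are 30 and 10 cGy of silicon). The 3 high arrays have member medians of 0.45 to 0.48 above the mean, and the week 1 sham arrays lie between -0.22 and -0.14.

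Most differences that passed the test were between weeks, with the respiratory subunits mainly higher at week 12 than at week 1. From week 1 to week 12, averaged over the 4 treatments, 35 of 76 members changed (46.1%), where 35.5% of all tested genes did. Of these, 31 rose (40.8% of members, against 15.2% of all genes) and 4 fell (5.26%, against 20.4%). The median member was 0.18 higher at week 12, while the median over all genes was -0.02. By week 4, 20 members had changed (26.3%, against 25.8% of all genes), 16 upward, where 11% of all genes rose, and 4 downward, where 14.8% fell. All 20 were among the 35 of week 12 and had the same sign. Both differences use the same arrays of week 1, so they are not independent. Between weeks 4 and 12 no member was called, while 1.64% of all genes were. In that step 16 members had an unadjusted p under 0.05, of which 15 were higher at week 12, beside 15.9% of all genes at that threshold. All 35 members called between weeks 1 and 12 had the same sign in each of the 4 treatments. They were called on the mean over these treatments, so the shared sign follows in part from the choice.

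Of these 35, 32 kept their call when any 1 of 24 arrays was left out. Ndufb6, Ndufs1 and Sdha kept it in 15, 8 and 5 of these 24 fits. The adjusted p was highest without replicate 3 of sham week 12 for Ndufb6 and Ndufs1. For Sdha it was highest without replicate 3 of 30 cGy silicon week 12. Over the other settings as well, 26 kept it. Atp5c1, Cox7a2l, Ndufb2, Ndufs4, Sdha and Uqcrfs1 lost their call with 4 tissue covariates (each array's mean of a skeletal muscle, a brown adipocyte, a T and B lymphocyte and a luminal epithelium list), at adjusted p of 0.0689, 0.594, 0.265, 0.0752, 0.0911 and 0.0663. The brown adipocyte list holds Cox8b and the muscle list Cox7a1, complex IV genes that only the rule keeps out of the members. These scores may therefore take out part of the members' own signal. Without the 3 high arrays Atp5c1, Cox5a, Ndufb6, Ndufs1 and Sdha lost their calls. Atp5c1 and Sdha also lost theirs with quantile normalization, and Ndufs1 and Sdha with no filter. Ndufs1 lost its call with a fit of the compared groups alone as well. Of the 20 called by week 4, 13 kept their call and Atp5o, Ndufa2, Ndufa4l2, Ndufa5, Ndufa9, Ndufb11 and Ndufb4 lost it without at least 1 array. Uqcrh and Cox7a2l lost theirs in another setting, which left 11 called in every one. The median for week 4 was 0.056 without replicate 1 of sham week 4, in place of 0.09. The step from week 4 to week 12 depended most on 1 array. Without replicate 1 of sham week 4, 10 members were called there (Atp5b, Atp5k, Atp5l, Atp5md, Ndufa10, Ndufb11, Ndufb2, Sdha, Uqcr11 and Uqcrc1), beside 4.46% of all genes, with Atp5md at 0.396 (adjusted p = 0.0101) in place of 0.33 ± 0.11 (adjusted p = 0.13).

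**Figure D2:**
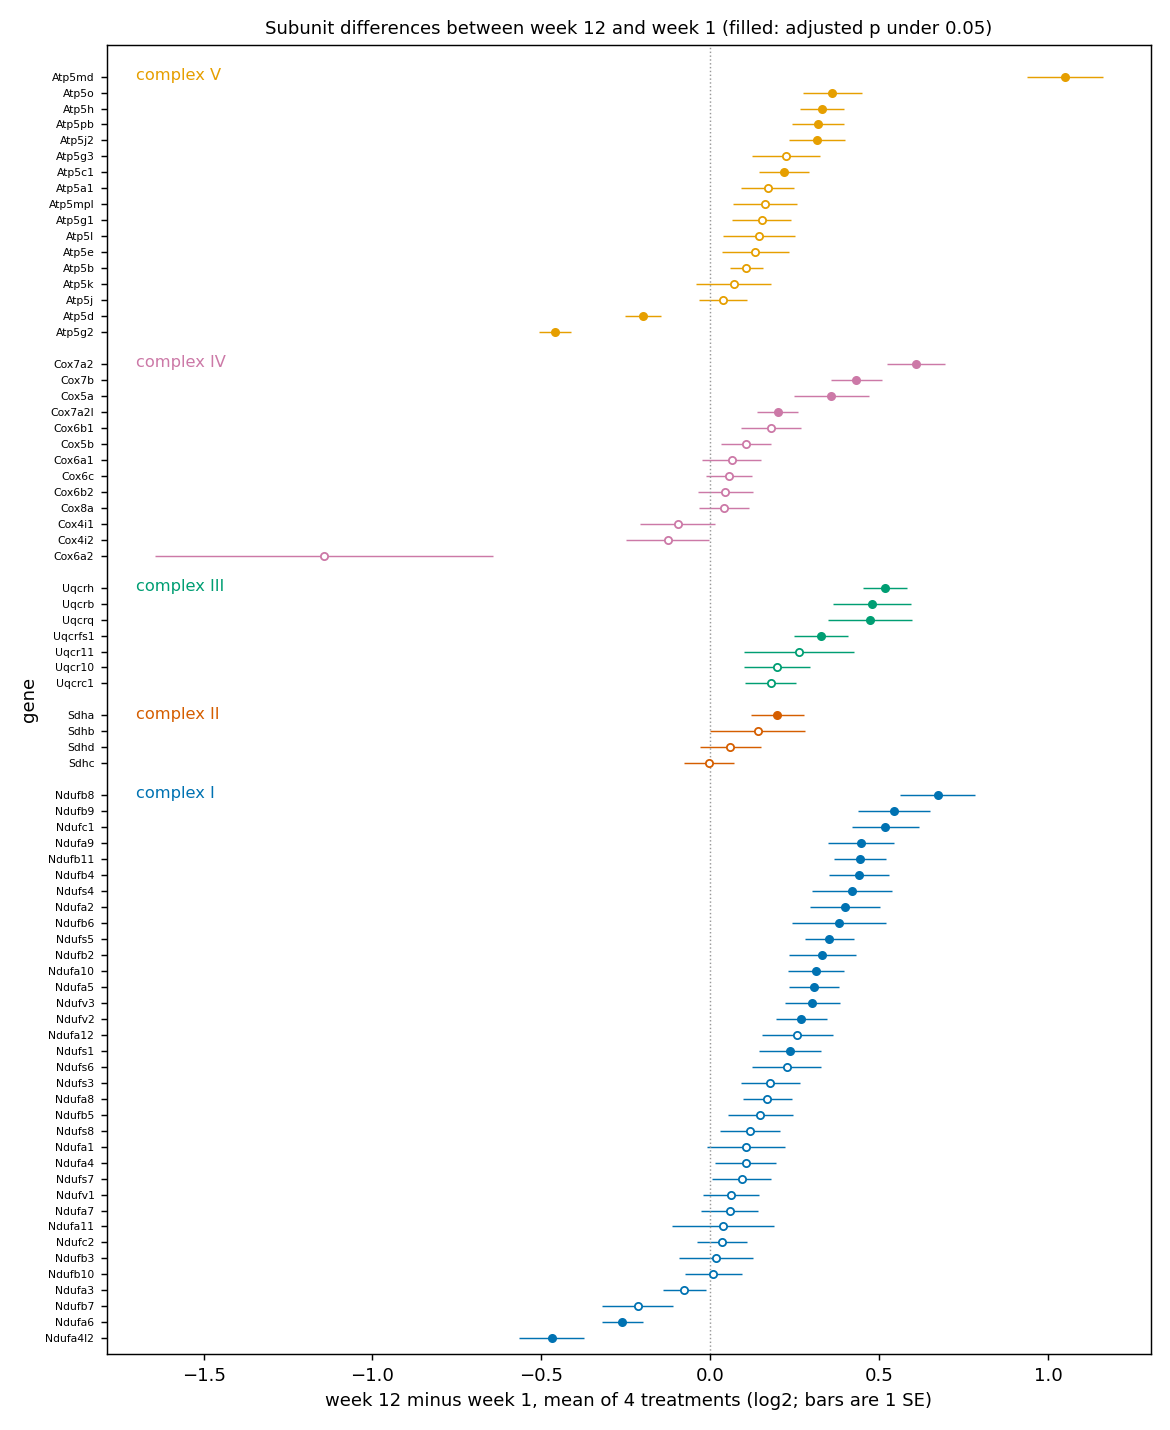
Difference between week 12 and week 1 over 4 treatments for each tested member (log2, with standard error), grouped by complex and marked where the adjusted p was under 0.05. Of 76 members, 31 were called higher and 4 lower, with Atp5md at 1.05 and Atp5g2 at -0.46.

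In complex I, 16 of 35 members rose and 2 fell from week 1 to week 12, with a median of 0.23. Accessory subunits, which surround the catalytic core, made up 29 of these 35 members, with Ndufa4 and Ndufa4l2 counted among them by name. Of the 29 accessory members 14 rose and 2 fell (median 0.26). Of the 6 measured core members, which carry the flavin and iron-sulfur centres and the quinone site, Ndufs1 and Ndufv2 rose (median 0.15). The Ndufs1 call was kept in 8 of 24 fits with 1 array left out and in 6 of 9 other settings. The share called was not compared between core and accessory members by a test. Ndufb8, an accessory subunit of the membrane arm, had lowest, median and highest values of 7.22, 7.48 and 7.85 over the 12 arrays of week 1. It had 7.40, 7.86 and 8.70 at week 4, and 7.60, 8.12 and 8.88 at week 12. The ranges of weeks 1 and 12 overlapped, and the mean difference was 0.67 ± 0.11 (SE), a factor of 1.59 (adjusted p = 2.54e-05). Ndufb9 and Ndufc1, also of the membrane arm, rose by 0.54 ± 0.11 and 0.52 ± 0.10. Ndufa9 (0.45 ± 0.10), Ndufb11 (0.44 ± 0.08), Ndufb4 (0.44 ± 0.09), Ndufs4 (0.42 ± 0.12) and Ndufs5 (0.35 ± 0.07) rose as well.

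Ndufa4l2, a relative of Ndufa4 that is induced by hypoxia in many cells, and Ndufa6, an accessory subunit near the quinone site, went the other way. Ndufa4l2 spanned 5.10 to 5.91 (median 5.57) at week 1, 4.76 to 5.60 (5.34) at week 4 and 4.37 to 5.59 (5.19) at week 12. Its lowest arrays were those of week 12 and the ranges overlapped, with a difference of -0.47 ± 0.10 between weeks 12 and 1 (adjusted p = 0.000367). Ndufa6 fell by 0.26 ± 0.06 (adjusted p = 0.00142). Ndufa4 itself differed by 0.10 ± 0.09 (adjusted p = 0.387).

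Complex II, which is also an enzyme of the tricarboxylic acid cycle, had 1 called member of 4. Sdha, the flavoprotein subunit, rose by 0.20 ± 0.08 (adjusted p = 0.0473). That call was kept in 5 of 24 fits with 1 array left out and in 5 of 9 other settings. The iron-sulfur subunit Sdhb differed by 0.14 ± 0.14 and the membrane anchor Sdhd by 0.06 ± 0.09.

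In complex III, 4 of 7 members rose, with a median of 0.33. Uqcrh, the hinge protein that helps cytochrome c bind, spanned 8.69 to 9.13 (median 8.92) over the 12 arrays of week 1. It spanned 9.18 to 9.74 (9.42) at week 4 and 9.16 to 9.93 (9.44) at week 12. Every array of weeks 4 and 12 was therefore above every array of week 1. The rise was 0.45 ± 0.06 by week 4 (adjusted p = 6.04e-06) and 0.52 ± 0.06 by week 12, a factor of 1.43 (adjusted p = 5.91e-07). A dimmer Uqcrh probe set, with a mean of 3.89, gave -0.01 for week 4 and 0.28 for week 12 against week 1. With both probe sets averaged, Uqcrh was 0.22 at week 4 and lost its call (adjusted p = 0.0545), and it was 0.40 at week 12 (adjusted p = 0.000557). Uqcrb and Uqcrq, small subunits of the membrane part, rose by 0.48 ± 0.11 and 0.47 ± 0.12, and Uqcrfs1, the Rieske iron-sulfur protein, by 0.33 ± 0.08.

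In complex IV, 4 of 13 tested members rose and none fell, and the median was 0.06. Cox7a2, the form of subunit 7a found in most tissues, ran from 7.72 to 8.25 (median 7.94) at week 1, from 8.11 to 8.79 (8.44) at week 4 and from 8.08 to 9.00 (8.55) at week 12. The later weeks overlapped week 1 only at its top, and the rise to week 12 was 0.61 ± 0.09, a factor of 1.53 (adjusted p = 3.4e-06). Cox7b lay between 10.84 and 11.21 at week 1 and between 11.24 and 11.78 at week 12, with no overlap (0.43 ± 0.08, adjusted p = 5.93e-05). Cox5a rose by 0.36 ± 0.11 and Cox7a2l, a factor that joins complexes III and IV in supercomplexes, by 0.20 ± 0.06, which was 0.0699 (adjusted p = 0.594) with the 4 tissue covariates. The paralogs Cox4i1 and Cox4i2 differed by -0.10 ± 0.11 and -0.13 ± 0.12, and neither was called. The liver form Cox6a1 differed by 0.06 ± 0.09, and the muscle form Cox6a2, not called, is described further on.

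In complex V, 6 of 17 members rose and 2 fell, with a median of 0.16. Atp5md, a small membrane subunit also known as DAPIT that has a part in the pairing of ATP synthases, had the largest rise of any member. Its lowest, median and highest values were 8.81, 9.05 and 9.39 at week 1. They were 9.30, 9.74 and 10.88 at week 4, and 9.75, 10.05 and 10.52 at week 12. All 12 arrays of week 12 were above all 12 of week 1, and the highest value of week 4 was replicate 1 of the sham group, one of the 3 high arrays. The rise was 0.72 ± 0.11 by week 4 (adjusted p = 1.64e-05) and 1.05 ± 0.11 by week 12, a factor of 2.07 (adjusted p = 5.05e-08). It was 1.08 in sham glands, 1.08 after gamma rays, 1.14 after 30 cGy and 0.91 after 10 cGy of silicon, and the 3 Atp5md probe sets gave 1.03 to 1.05. Atp5o, the stalk protein that confers oligomycin sensitivity, rose by 0.36 ± 0.09. Atp5h and Atp5pb, subunits d and b of the peripheral stalk, rose by 0.33 ± 0.07 and 0.32 ± 0.08. Atp5j2, subunit f of the membrane part, rose by 0.32 ± 0.08, and Atp5c1, the rotating gamma subunit, by 0.22 ± 0.07. Atp5d, the delta subunit of the central stalk, fell by 0.20 ± 0.05.

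Atp5g2 was the other member with no overlap between week 1 and the later weeks, and it moved down. It is one of 3 genes, with Atp5g1 and Atp5g3, that encode the same mature c subunit, the protein that forms the rotor ring in the membrane. Atp5g2 lay between 10.16 and 10.39 (median 10.26) at week 1, between 9.66 and 9.88 (9.78) at week 4 and between 9.65 and 10.07 (9.79) at week 12. Each array of weeks 4 and 12 was thus below each array of week 1. The difference from week 1 was reached by week 4 (-0.50 ± 0.05, adjusted p = 7.31e-09) and was -0.46 ± 0.05 at week 12, a factor of 0.727 (adjusted p = 2.15e-08). It was -0.49 in sham glands, -0.45 after gamma rays, -0.40 after 30 cGy and -0.50 after 10 cGy of silicon, and 3 probe sets gave -0.38 to -0.46. Atp5g1 spanned 9.59 to 10.10 at week 1 and 9.59 to 10.46 at week 12, overlapping throughout (0.15 ± 0.09, adjusted p = 0.176). Atp5g3 spanned 9.43 to 9.98 and 9.42 to 10.39 (0.23 ± 0.10, adjusted p = 0.0829), and leaving out 1 of 3 arrays in turn (replicate 2 of 10 cGy silicon week 1, replicate 1 of 30 cGy silicon week 12 or replicate 2 of sham week 12) brought it to an adjusted p of 0.0136 to 0.0484. Atp5g3 was 0.175 without replicate 3 of 30 cGy silicon week 12 and 0.135 without the 3 high arrays, and its adjusted p rose to 0.284 with the 4 tissue covariates. The difference between the paralogs' changes was not tested.

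Across the series, 4 members (Atp5g2, Atp5md, Cox7b and Uqcrh, 5.26%) had no overlap between the arrays of weeks 1 and 12, where 2.75% of all genes had none. Between week 1 and the pooled later weeks it was 2 members (Atp5g2 and Uqcrh, 2.63%) against 0.881% of all genes.

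**Figure D3:**
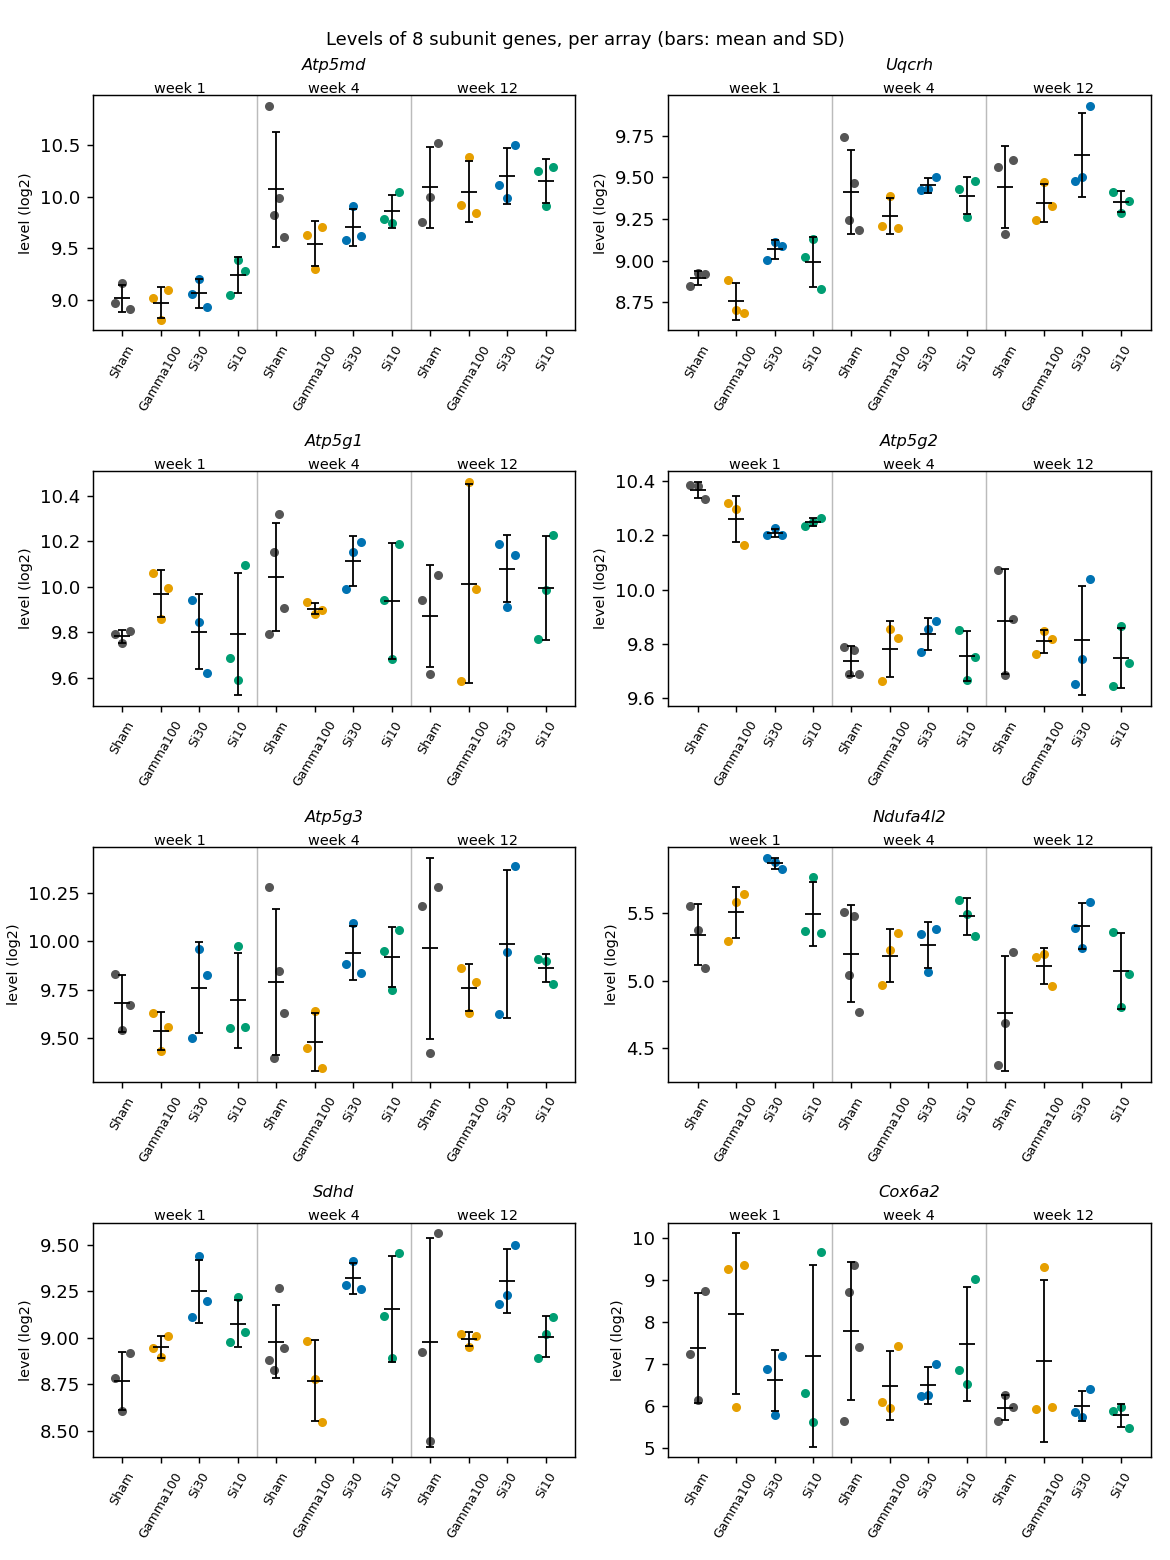
Log2 signal of 8 members on each array, by treatment and week, with group mean and SD as bars (n = 3, sham week 4 n = 4). Atp5md and Uqcrh sit higher and Atp5g2 sits lower at weeks 4 and 12 than at week 1 in every treatment, while Atp5g1 and Atp5g3 overlap between weeks.

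The promoters of the 3 c subunit genes are shown because the genes encode the same mature protein and 1 of them was called lower at the later weeks. These are the 250 bases before each start, from RefSeq on GRCm38.p6, the C57BL/6J reference and not the BALB/c strain of these mice. Capitals mark the core palindrome of NRF1, a factor known to bind many promoters of respiratory genes. Atp5g1 is from the minus strand of chr11:96075632-96075881, Atp5g2 from the minus strand of chr15:102671048-102671297 and Atp5g3 from the minus strand of chr2:73911327-73911576, all 5′ to 3′.
Atp5g1: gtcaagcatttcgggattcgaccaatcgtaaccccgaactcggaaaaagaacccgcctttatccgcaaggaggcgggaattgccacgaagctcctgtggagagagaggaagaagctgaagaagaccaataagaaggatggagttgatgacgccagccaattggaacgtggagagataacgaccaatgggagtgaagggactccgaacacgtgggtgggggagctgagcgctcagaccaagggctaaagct
Atp5g2: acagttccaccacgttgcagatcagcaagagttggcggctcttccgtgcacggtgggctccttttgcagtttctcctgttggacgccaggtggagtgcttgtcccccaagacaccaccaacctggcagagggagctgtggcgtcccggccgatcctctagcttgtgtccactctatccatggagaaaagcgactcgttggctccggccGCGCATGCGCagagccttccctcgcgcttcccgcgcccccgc
Atp5g3: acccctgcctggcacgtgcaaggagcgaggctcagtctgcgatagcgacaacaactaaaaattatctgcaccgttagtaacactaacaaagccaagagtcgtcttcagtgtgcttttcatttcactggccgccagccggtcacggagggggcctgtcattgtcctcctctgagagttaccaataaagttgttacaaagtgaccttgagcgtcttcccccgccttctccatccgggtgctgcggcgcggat
Among these windows the palindrome is in that of Atp5g2, 42 bases before the start.

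RefSeq promoters were found for 64 of the 78 members, 69 promoters in all, each from 250 bases before to 50 after the start. The NRF1 palindrome, which reads the same on both strands, was in promoters of Atp5g2, Atp5k, Cox6a1, Ndufa11 and Uqcrc1, 7.25% of member promoters against 0.971% of all 32851. The ETS motif CCGGAAGT, on either strand, was in promoters of Atp5h, Cox8a, Ndufs3, Uqcr11 and Uqcrh, 7.25% against 3.89%. The YY1 motif AAGATGGCG, on either strand, was in promoters of Atp5j, Atp5j2, Ndufa9, Ndufc1, Ndufs4, Ndufs6 and Ndufs7, 10.1% against 1.40%. No member promoter held more than 1 of the 3 motifs, and a match is a description of the letters, not a bound site. The 4 palindromes before a start are shown with 10 bases on either side, to let their surroundings be compared. They are on chr15:102671070-102671099 (minus strand), chr5:108434430-108434459 (minus), chr5:115349101-115349130 (minus) and chr17:56717692-56717721 (plus).
Atp5g2: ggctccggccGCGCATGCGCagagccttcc
Atp5k: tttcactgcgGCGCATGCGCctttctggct
Cox6a1: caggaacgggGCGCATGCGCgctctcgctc
Ndufa11: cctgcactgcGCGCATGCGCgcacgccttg
The 4 genes did not share a course over the weeks: Atp5g2 fell, and Cox6a1, Atp5k and Ndufa11, like Uqcrc1, were not called between weeks 1 and 12. Of the members with the ETS motif, Uqcrh and Atp5h rose, and Cox8a, Ndufs3 and Uqcr11 were not called. Of those with the YY1 motif, Atp5j2, Ndufa9, Ndufc1 and Ndufs4 rose, and Atp5j, Ndufs6 and Ndufs7 were not called. Among all 76 tested members 46.1% were called.

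Irradiation was compared with sham at each week, which asks whether the gland's respiratory genes respond to sparsely or densely ionizing radiation. The 3 irradiated groups of a week share its sham arrays, so their differences are not independent. No member was called in any of the 9 comparisons at a single week or the 3 over all weeks. Calls over all genes were also few: 0.0228% for gamma rays at week 1, 0.0228% for 30 cGy and 0.0835% for 10 cGy of silicon at week 1, 0% for each irradiation at weeks 4 and 12, and 0%, 0.0304% and 0% for gamma rays, 30 cGy and 10 cGy over the 3 weeks. An unadjusted p under 0.05 was reached at week 1 by 0, 10 and 0 members for gamma rays, 30 cGy and 10 cGy, beside 7.82%, 12% and 5.4% of all genes. At week 4 it was 6, 1 and 0 members beside 5.56%, 8.08% and 3.17%, and at week 12 it was 0, 5 and 2 members beside 2.82%, 5.28% and 4.7%. Over the 3 weeks it was 4, 15 and 4 members beside 5.36%, 14.7% and 6.71%.

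**Figure D4:**
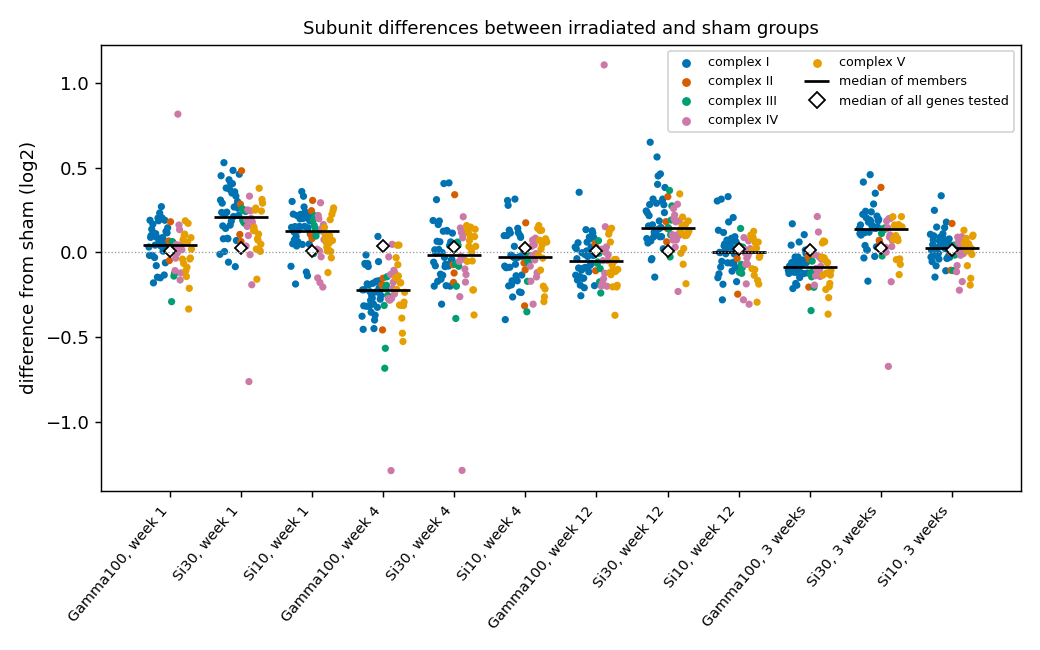
Differences of the 76 tested members from sham (log2) for each irradiation at weeks 1, 4 and 12 and over the 3 weeks, coloured by complex, with bars at the median of the members and diamonds at the median of all tested genes. Medians of the members were 0.21 for 30 cGy silicon at week 1 and -0.22 for gamma rays at week 4, and no member had an adjusted p under 0.05.

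At week 1 after 30 cGy of silicon, 69 of 76 members were above sham and the median difference was 0.21, where the median of all genes was 0.03. All 10 members with an unadjusted p under 0.05 were higher (7 of complex I, 1 of complex II and 2 of complex V), 13.2% of members against 8.5% of all genes on that side. In 34 members (44.7%) the 3 irradiated arrays were all above the 3 sham arrays, where 14.5% of all genes had that order. Medians were 0.26 for complex I, 0.20 for II, 0.24 for III, 0.16 for IV and 0.13 for V. Ndufa4l2 had 5.91, 5.88 and 5.83 against 5.55, 5.38 and 5.10 in sham, with no overlap and a difference of 0.53 ± 0.19 (adjusted p = 0.324). Sdhd had 9.11, 9.44 and 9.20 against 8.79, 8.60 and 8.92, again with no overlap (0.48 ± 0.18, adjusted p = 0.324). Ndufv3, an accessory subunit named here because its p was the smallest, a choice made after its values were seen, had 8.27, 8.32 and 8.22 against 7.80, 7.88 and 7.74 (0.46 ± 0.16, adjusted p = 0.313). The members with the largest positive difference in complexes V, IV and III also had separated arrays. Atp5j2 had 9.74, 9.73 and 9.64 against 9.35, 9.18 and 9.43 (0.38 ± 0.16). Cox6b1, a complex IV subunit on the intermembrane side, had 9.34, 9.52 and 9.53 against 9.23, 9.11 and 9.06 (0.33 ± 0.18). Uqcr10, a small complex III subunit, had 8.03, 8.17 and 8.07 against 7.96, 7.74 and 7.80 (0.26 ± 0.19).

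Other gene lists differed in the same arrays. In 30 cGy silicon against sham at week 1, 15 of 15 tricarboxylic acid cycle genes were above sham (median 0.31), 10 of 10 brown adipocyte genes (0.42), 13 of 14 white adipocyte genes (0.21) and 9 of 10 macrophage genes (0.58). T and B lymphocyte genes were above sham in 0 of 18 (-1.85) and skeletal muscle genes in 3 of 26 (-1.10). With the array scores of 4 tissue lists as covariates the median of the members was -0.0625 and Uqcr10 was -0.0735, so the direction of both turned. These lists hold Cox8b and Cox7a1, so the scores may take out part of the members' own signal. The part of these tissues in the members' difference was not tested further.

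After 10 cGy of silicon at week 1, 65 of 76 members were above sham, with a median of 0.13. It was 0.0538 without replicate 2 of the irradiated group and 0.0231 with the 4 tissue covariates. The largest positive differences in their complexes included Sdhd (0.31 ± 0.18) and Atp5pb (0.26 ± 0.15), each with an adjusted p of 0.962. After gamma rays at week 1, 48 of 76 were above sham and the median was 0.04, which was 0.0093 without irradiated replicate 1 and turned to -0.0326 with the 4 tissue covariates. Atp5k, subunit e of the ATP synthase, had 6.69, 6.69 and 6.48 against 6.96, 7.01 and 6.90 in sham, all lower (-0.33 ± 0.22, adjusted p = 0.771). After gamma rays 4 of 76 members had all irradiated arrays below all sham arrays, beside 5.52% of all genes.

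At week 4 the members stood lower than sham after gamma rays: 4 of 76 were above 0, and the median was -0.22, with complexes I to V at -0.23, -0.20, -0.25, -0.21 and -0.22. The 6 members with an unadjusted p under 0.05 were all lower (2 of complex I, 2 of III and 2 of V), where 1.9% of all genes passed on that side. 1 sham array stood far above the rest in these members. Uqcr11, a small complex III subunit, had 7.57, 7.56 and 7.60 after gamma rays, against 9.89 in sham replicate 1 and 7.54, 7.95 and 7.65 in the other sham arrays (-0.68 ± 0.30, adjusted p = 0.798). Ndufa11, a membrane subunit of complex I, had 7.43, 7.46 and 7.61 against 9.38 in that array and 7.49, 7.61 and 7.34 in the others (-0.45 ± 0.28). Sdhb had 8.12, 8.41 and 8.21 against 9.91, 8.10, 8.66 and 8.15 (-0.46 ± 0.26). Apart from replicate 1 the sham arrays overlapped the irradiated ones. Without it the median was -0.105 and Ndufa11 was 0.0213, on the other side of 0. With the 4 tissue covariates the median was -0.03. Beside the members, 0 of 15 tricarboxylic acid cycle genes (-0.21), 0 of 10 brown adipocyte genes (-0.21) and 2 of 26 muscle genes (-1.50) were above sham, while 18 of 18 T and B lymphocyte genes (1.06), 12 of 12 basal epithelium genes (0.48) and 14 of 16 luminal epithelium genes (0.34) were. Their part in the result was not tested further.

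After silicon at week 4 the members had medians of -0.01 (30 cGy, 36 of 76 above sham) and -0.03 (10 cGy, 27 above). Without sham replicate 1 the medians were 0.127 and 0.11, and with the 4 tissue covariates they were 0.0736 and 0.0852, above 0 in each case. Ndufs5, a complex I subunit on the intermembrane side, had 6.88, 7.16 and 7.11 after 30 cGy against 6.69, 6.47, 6.87 and 6.54, with no overlap (0.41 ± 0.14, adjusted p = 0.482). After 30 cGy 1 of 76 members (1.32%) had all irradiated arrays above all sham arrays, where 6.19% of all genes did.

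At week 12 after 30 cGy of silicon, 68 of 76 members were above sham, with a median of 0.14, and the 5 with an unadjusted p under 0.05 were all higher, where 2.84% of all genes passed on that side. Ndufa4l2 had 5.40, 5.24 and 5.59 against 4.37, 4.68 and 5.22 in sham, with no overlap (0.65 ± 0.19, adjusted p = 0.906). All irradiated arrays were above all sham arrays in 1 of 76 members (1.32%), where 3.83% of all genes had that order. Sdhd had 9.18, 9.23 and 9.50 against 8.92, 8.44 and 9.56, and Uqcrb had 10.51, 10.48 and 10.89 against 10.28, 9.75 and 10.75. In both genes the third sham array, one of the 3 high arrays, overlapped or passed the irradiated ones. Without that array the median was 0.326 and 2 members were called, Ndufv2 and Ndufa4l2 (0.881, adjusted p = 0.0497), while 0.235% of all genes were called. Without sham replicate 2, in which the members stood low, the median was 0.0242. Without irradiated replicate 3, the other high array of this week, it was 0.0433, and with the 4 tissue covariates it was 0.0887. Gamma rays and 10 cGy had medians of -0.05 and 0.001 at week 12. These were 0.137 and 0.183 without sham replicate 3, and -0.207 and -0.148 without replicate 2, so neither has a settled direction.

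Over the 3 weeks, 30 cGy of silicon had 66 of 76 members above sham, with a median of 0.14. The median was 0.188 without replicate 3 of sham week 12, 0.0738 without replicate 2 of that group and 0.0393 with the 4 tissue covariates. Of the 15 members with an unadjusted p under 0.05, 14 were higher, where 10.2% of all genes passed on that side. Sdhd had group means of 8.77 ± 0.16, 8.98 ± 0.20 and 8.98 ± 0.56 in sham at weeks 1, 4 and 12 (SD, n = 3, 4 and 3). After 30 cGy it had 9.25 ± 0.17, 9.32 ± 0.08 and 9.31 ± 0.17 (n = 3 each), higher at each week, with an overlap at weeks 4 and 12. The mean difference was 0.38 ± 0.10 (adjusted p = 0.16). Ndufs5 differed by 0.35 ± 0.08 (adjusted p = 0.123, the smallest among members, named after its values were seen) and Ndufb6 by 0.46 ± 0.16 (adjusted p = 0.222). Without replicate 3 of sham week 12, 8 members were called (Atp5d, Ndufa4l2, Ndufa8, Ndufb6, Ndufs1, Ndufs5, Ndufv2 and Sdhd), when 305 of all genes (2.32%) were. Gamma rays had 10 of 76 members above sham over the 3 weeks and a median of -0.09, with 4 members lower at an unadjusted p under 0.05, where 1.5% of all genes were. Among these was Atp5k (-0.36 ± 0.13, adjusted p = 0.833). The median was -0.0229 without replicate 3 of sham week 12, -0.0426 without replicate 1 of sham week 4 and -0.0378 with the 4 tissue covariates. For 10 cGy, 49 of 76 were above sham, with a median of 0.02, which ran from -0.0232 without replicate 2 of sham week 12 to 0.0879 without replicate 3.

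Across all 12 groups, limma's F test called 14 members (18.4%), where 15.8% of all genes were called. They were Ndufa4l2, Ndufa6, Ndufb8, Ndufb9, Ndufb11, Ndufc1 and Ndufs5 of complex I, Uqcrh of complex III, Cox7a2 and Cox7b of complex IV, and Atp5g2, Atp5h, Atp5md and Atp5o of complex V. Each of these 14 was also called between weeks 1 and 12, a difference that the F test includes, so this is not independent support. The F test for irradiation effects that differ between weeks called 0 members and 0% of all genes. At an unadjusted p under 0.05 it held 0 members and 3.96% of all genes.

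Members also moved together from array to array within groups. Over the 37 arrays, deviations from group means correlated between pairs of members at a median of 0.56, where the median over pairs of all genes was 0.015. This is a description, since the points share arrays and the normalization. The correlations include the 3 high arrays and were not computed without them. Pairs within complex III had a median of 0.70 and pairs within complex IV of 0.34. Of the 76 members, 69 correlated at 0.5 or more with the median of the others. Ndufv1, the flavoprotein that takes electrons from NADH, followed it most closely (0.94), then Ndufb8 (0.93) and Ndufb9 (0.92). The 7 that did not were Cox6a2 (-0.14), Cox7a2l (0.05), the hypoxia-linked form Cox4i2 (0.13), Atp5g1 (0.20), the testis form Cox6b2 (0.33), Atp5g2 (0.45) and Ndufa6 (0.49). The widest range over the arrays was that of Cox6a2 (4.19), followed by Uqcr11 (2.56) and Ndufa11 (2.23). The narrowest was that of the catalytic beta subunit Atp5b (0.41, from 11.8 to 12.2).

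The 3 high arrays show the same shared movement at its largest. Replicate 1 of sham week 4 had the highest value of all 37 arrays for 29 members (38.2%, against 8.51% of all genes). Replicate 3 of 30 cGy silicon week 12 had it for 24 (31.6%, against 4.83%) and replicate 3 of sham week 12 for 11 (14.5%, against 2.2%). Complexes I to V were at 0.55, 0.43, 0.69, 0.42 and 0.25 above their means in the first of these. Uqcr11 was 1.95, Ndufa11 1.67, Sdhb 1.45 and Uqcrb 1.21 above its own mean there, while 9 members were below theirs (Atp5d, Atp5g1, Atp5g2, Cox4i2, Cox6a2, Ndufa3, Ndufb6, Ndufs5 and Sdhd). In the sham array of week 12, Atp5md stood 0.85 and Ndufb9 and Uqcrq 0.78 above their means, and in the silicon array Ndufb8 stood 1.02 and Atp5md 0.83 above. Brown adipocyte genes were above their own mean in 10 of 10, 7 of 10 and 10 of 10 in these arrays in the order just given (sham week 4, silicon week 12, sham week 12), and tricarboxylic acid cycle genes in 14, 15 and 15 of 15. Muscle genes were above theirs in 3 of 26, 3 of 26 and 4 of 26. Other lists differed there too: in the same order, basal epithelium genes were above their own mean in 0, 1 and 1 of 12, fibroblast genes in 0, 1 and 2 of 11, luminal epithelium genes in 1, 9 and 2 of 16, white adipocyte genes in 14, 8 and 9 of 14, and T and B lymphocyte genes in 0, 0 and 18 of 18. Ucp1, the brown adipocyte uncoupling protein, was not past the filter, with a median of 3.25, and was 5.04, 3.51 and 4.70. The part of these cell types in the members' levels was not tested.

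Cox6a2, the form of subunit 6a of heart and skeletal muscle, went its own way. It ranged from 5.47 to 9.66, and 8 arrays were above 8.5 while the others were at 7.42 or below. The 8 were replicate 3 of 10 cGy silicon week 1 (9.66), replicates 1 and 3 of gamma week 1 (9.25 and 9.34), replicate 3 of sham week 1 (8.74), replicates 2 and 3 of sham week 4 (8.72 and 9.34), replicate 3 of 10 cGy silicon week 4 (9.03) and replicate 2 of gamma week 12 (9.30). They were also the 8 arrays with the highest mean of the muscle list, and they belong to 6 groups, each of which also held arrays at 7.42 or below. Its spread within groups (SD 1.23) was far above the median member's 0.215. Against sham it had the differences of largest size of any member, -1.29 ± 0.94 after gamma rays and -1.29 ± 0.94 after 30 cGy at week 4 and 1.11 ± 1.00 after gamma rays at week 12, and also the largest standard errors. The difference of -1.14 ± 0.50 between weeks 12 and 1 was not called (adjusted p = 0.0755), but it was called when 1 array was left out, for 4 arrays in turn (replicate 2 of gamma week 1, of 10 cGy silicon week 1, of sham week 1 and of gamma week 12), with values of -1.42 to -1.30. It was -0.836 without replicate 3 of 10 cGy silicon week 1, and -0.0596 (adjusted p = 0.854) with the 4 tissue covariates, of which the muscle list is one. The 26 muscle genes had a median of -1.34 for the same weeks. Of these 26, 4 were called lower, where 20.4% of all genes were. Cox6a1, its counterpart in other tissues, spanned 8.92 to 9.38 at week 1 and 8.57 to 9.68 at week 12.

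**Figure D5:**
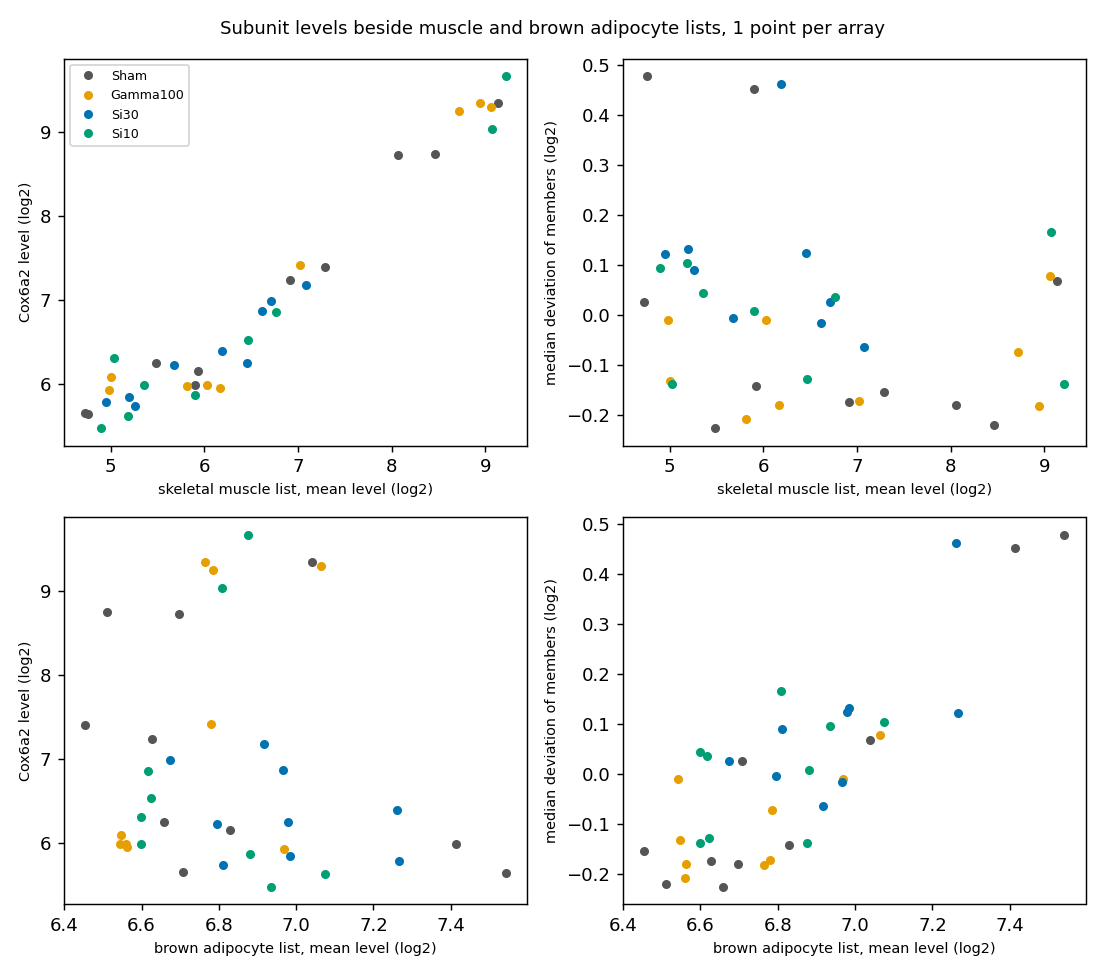
Cox6a2 (log2 signal) and the median member deviation (log2) on each of 37 arrays against the mean level of a skeletal muscle list and of a brown adipocyte list. The 8 arrays with Cox6a2 above 8.5 are the 8 highest on the muscle list, and the 3 arrays highest in members are not among them.

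Genes around the complexes were counted from lists of the pathway for week 12 against week 1, when 35.5% of all genes were called. Of 13 electron carriers and subunits outside the naming rule, 5 rose and 1 fell. Cyc1, the cytochrome subunit of complex III, rose by 0.48 ± 0.11 (adjusted p = 0.00121) and Coq9, needed to make ubiquinone, fell by 0.33. Of 42 assembly factors, 12 rose and 2 fell, with Cox16 at 0.43 ± 0.07, Nubpl at 0.39 and Cox10 at -0.34. Of 15 tricarboxylic acid cycle genes, 3 rose (Pdhb 0.48, Suclg1 0.39 and Dld 0.34) and 1 fell. Of 14 genes of fatty acid oxidation, 4 rose and 2 fell. Of 15 regulators of mitochondrial gene expression, 3 rose and 5 fell: Tfam, which packs and transcribes mitochondrial DNA, rose by 0.40 ± 0.09, while the coactivators Ppargc1b and Pprc1 were at -0.28 and -0.27 and the mitochondrial RNA polymerase Polrmt at -0.25. Of 23 cytosolic ribosomal protein genes, 12 rose and 2 fell. Among tissue lists, 6 of 16 luminal epithelium genes rose (median 0.34), 1 of 14 white adipocyte genes rose and 6 fell (-0.24), and none of 18 T and B lymphocyte genes was called (median -0.70). The part of these shifts in tissue in the members' differences between weeks was not tested. With the 4 tissue covariates 31 members were called. For week 4 against week 1 the same fit called 29 members in place of 20, with a median of 0.162 in place of 0.09. The share of all genes called in that fit was not counted for either comparison.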

How the data were processed

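Total RNA of mammary glands was hybridised to Affymetrix arrays, 1 array for each of 37 samples. The deposited values are log2 signals, summarised per probe set by RMA with oligo, per the submitters' processing notes, which give no versions. Replicate arrays were grouped by title. Gene names came from GEO's annotation of the platform's probe sets: 23099 of 35556 were listed and 21218 had 1 symbol. The probe set with the highest mean over 37 arrays stood for each of 18820 genes. Genes whose mean was above the 30th percentile (log2 4.04) were tested, 13174 in all. A mean for each of 12 groups was fitted with limma 3.58.1 in R 4.3.3, with 25 residual and 3.4 prior degrees of freedom, over 15 contrasts, two-sided, with Benjamini-Hochberg adjustment over all tested genes within a contrast. The fit was tested on simulated data. The precision is limited by the number of arrays. The members and gene lists were chosen with earlier results of these data known. Named members were those called in any test, the largest positive and negative difference of each complex and comparison, the brightest and dimmest of each complex, and paralogs. The main fit did not pair samples by replicate number. Of 27 same-number correlations, 12 were above 0.1 (median 0.084, from -0.403 to 0.652). They were not set beside correlations of different numbers, so they cannot decide whether replicate numbers pair the samples. Alternatives were no filter, averaging each gene's probe sets, quantile normalization, robust eBayes with a trend, a block for replicate number, fitting the compared groups alone, 4 tissue scores as covariates, and arrays left out. Motifs were searched in RefSeq promoters of GRCm38.p6.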

Additional observations from a re-analysis of the deposited data

Results flagged for a closer look

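In groups of 4 to 10 samples, which here means sham week 4, 51 values were checked for 1 array far from the others, and 3 were past Dixon's 95% critical value for 4 samples, where chance gives about 5%. All 3 were replicate 1 of sham week 4. The values checked were those of named members, some named for their differences at week 4, and medians of members. They share the same 4 arrays, so the 3 flags are not independent support for an unusual array. Ndufa11 was 9.38 there, with a gap of 0.869 of the group's range. Atp5k was 7.87 (0.917) and Cox7a2l was 7.20 (0.839). The array is one of the 3 in which the members stood high together, and it was the least like the rest, with a median correlation of 0.964 with the other arrays.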

How the results depend on the processing

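With no filter, averaged probe sets per gene, quantile normalization, robust eBayes with a trend or a fit of the compared groups alone, the counts of called members stayed within 1.5 times and no median moved by more than the spread between replicates (a pooled SD of 0.171), a margin wide enough to hold several of the medians themselves. With the replicate number as a block, 21, 0 and 36 members were called for weeks 4 against 1, 12 against 4 and 12 against 1, in place of 20, 0 and 35. The share of all genes called was not counted in that fit. The median for gamma rays at week 4 was -0.305 with the block, and Ndufa4l2 lost its call for week 4. With the 4 tissue covariates the median was -0.0625 for 30 cGy at week 1 and -0.03 for gamma rays at week 4, and Uqcr10 was -0.0735 for 30 cGy at week 1. Both arrays least like the rest, replicate 3 of sham week 1 and replicate 1 of sham week 4, were also left out. Without them 10 members were called between weeks 4 and 12, with the share of all genes not counted. Ndufa11 at week 4 was then 0.0213 for gamma rays and 0.0789 for 10 cGy, as it was without replicate 1 of sham week 4 alone. Without the 3 arrays highest in members, chosen for that level after the data were seen, Ndufa11 had the same values. In that fit 14 members were called for 30 cGy over 3 weeks, beside 2.41% of all genes. Between weeks 4 and 12 it was 3 members, beside 2.57% of all genes. The medians at week 12 were then 0.137 for gamma rays and 0.183 for 10 cGy. Leaving out 1 array at a time, the medians at week 12 ran from -0.207 to 0.137 for gamma rays, from 0.0242 to 0.326 for 30 cGy and from -0.148 to 0.183 for 10 cGy. Ndufa11 at week 4 ran from -0.661 to 0.0213 for gamma rays and from -0.603 to 0.0789 for 10 cGy. The calls ran from 0 to 2 for 30 cGy at week 12, from 0 to 8 for 30 cGy over 3 weeks, from 16 to 23 for weeks 4 against 1, from 0 to 10 for weeks 12 against 4 and from 32 to 42 for weeks 12 against 1. Beside these highest counts, 0.235%, 2.32%, 29.3%, 4.46% and 35.3% of all genes were called, in the same order. Apart from the settings whose construction shows it, fewer arrays or added covariates, the cause was not tested. With 3 arrays in most groups, differences from sham near their standard errors could not be told from 0.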
